A study of Homo sapiens with 4 samples.

Results

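The IFT80 to ZBBX stretch is a set of promoters on the long arm of human chromosome 3. Its members are 10 of the 28775 rows of a promoter accessibility table: TRIM59-IFT80, IFT80, TRIM59, KPNA4, PPM1L, NMD3, SPTSSB, SLITRK3, BCHE and ZBBX. They were picked by symbol, as neighbouring promoters whose counts were higher in MORC2 knockout (KO) than in wild-type (WT) cells while the WT libraries were alike. The KO to WT contrast and the WT libraries therefore chose the members, and their fold changes are given below as a description. Which members passed the test run over all promoters is stated once, and nothing is read from it.

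The assay was ATAC-seq, which uses the transposase Tn5 to place sequencing adapters where chromatin is open. The cells were HEK293T, a line derived from human embryonic kidney with extra and rearranged chromosomes, and 2 WT and 2 MORC2 KO libraries were made. MORC2 is a chromatin-compacting ATPase that works with the HUSH silencing complex, and the comparison asks how its loss affects accessibility. The KO cells were bulk pools electroporated with Cas9 protein and 1 guide RNA, guide 1 for KO replicate 1 and guide 2 for KO replicate 2, so that guide and replicate cannot be told apart. The study's methods name the electroporated cells HEK293, whereas the labels give HEK293T. No clone was isolated, and the share of edited cells in a pool was not measured by these counts. The study's methods describe the WT replicates as independent.

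Total promoter counts ranged from 9435801 to 15152636 fragments, and mitochondrial rows held 20.6% to 35.1% of a library. The deepest library with the smallest mitochondrial share was KO replicate 2. Normalised counts below (CPM) give the fragments of a promoter relative to the TMM-scaled total of its library. At the promoter of the targeted gene, MORC2, KO replicates 1 and 2 had 403 and 639 fragments, whereas WT replicates 1 and 2 had 247 and 267. They correspond to 37.2 ± 0.359 CPM in KO (SD, n = 2) and 27.6 ± 2.77 CPM in WT, a log2 fold change of 0.43 (SE 0.087). Promoter accessibility of the edited gene does not measure the edit itself. Of the promoters fixed as markers of the line, SALL1 stood at 58.7 CPM in WT, LIN28B at 22.5, NEFM at 12.3 and PAX2 at 7.16. Promoters of blood, liver and red cell genes (PTPRC, CD3E, ALB and HBB) lay between 1.71 and 2.36 CPM.

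Promoters of genes used in most cells tend to lie in CpG islands, stretches rich in unmethylated CG dinucleotides that stay depleted of nucleosomes and are readily cut by Tn5. Promoters of tissue-restricted genes often lack such islands and are closed outside their tissue. The stretch holds both kinds. IFT80 (Gene ID 57560) encodes a subunit of the intraflagellar transport machinery that builds cilia, and TRIM59 (286827) a RING-type ubiquitin ligase of the TRIM family. TRIM59-IFT80 (100174949) is a non-coding readthrough transcript of these neighbours. KPNA4 (3840) is an importin alpha that carries proteins into the nucleus, PPM1L (151742) a metal-dependent protein phosphatase, NMD3 (51068) an adaptor for nuclear export of the large ribosomal subunit, and SPTSSB (165679) a small subunit of serine palmitoyltransferase, the entry enzyme of sphingolipid synthesis. SLITRK3 (22865) encodes a synaptic adhesion protein, BCHE (590) butyrylcholinesterase, and ZBBX (79740) a zinc finger protein with a B-box.

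RefSeq promoter sequence on GRCh38.p14 was matched by symbol for 9 of the 10 members, KPNA4 being the exception. The following 4 were chosen to show the span from the most to the least CpG-rich promoter. Each run holds the 250 bases upstream of the listed start, 5′ to 3′ on the strand of the gene, with CG dinucleotides in capitals. The alignment of the fragments was to another assembly, CHM13, so these positions belong to the sequences and not to the counts. The TRIM59 sequence is chr3:160449787-160450036 on the minus strand, with 25 CpGs and 68.4% GC. The PPM1L sequence is chr3:160755981-160756230 on the plus strand, with 28 CpGs and 76.0% GC. The SPTSSB sequence is chr3:161371518-161371767 on the minus strand, with 10 CpGs and 54.8% GC. The BCHE sequence is chr3:165837424-165837673 on the minus strand, with 2 CpGs and 33.2% GC.
PPM1L: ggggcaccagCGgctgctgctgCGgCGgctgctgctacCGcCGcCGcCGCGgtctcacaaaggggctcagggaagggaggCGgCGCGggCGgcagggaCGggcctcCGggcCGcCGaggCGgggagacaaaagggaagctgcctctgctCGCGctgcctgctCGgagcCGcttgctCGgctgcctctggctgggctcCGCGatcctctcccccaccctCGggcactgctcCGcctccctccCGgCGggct
TRIM59: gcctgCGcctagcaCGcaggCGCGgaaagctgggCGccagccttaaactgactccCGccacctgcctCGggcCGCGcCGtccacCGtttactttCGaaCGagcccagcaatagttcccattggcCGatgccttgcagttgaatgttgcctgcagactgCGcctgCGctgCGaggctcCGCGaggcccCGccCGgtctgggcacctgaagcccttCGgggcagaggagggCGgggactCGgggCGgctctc
SPTSSB: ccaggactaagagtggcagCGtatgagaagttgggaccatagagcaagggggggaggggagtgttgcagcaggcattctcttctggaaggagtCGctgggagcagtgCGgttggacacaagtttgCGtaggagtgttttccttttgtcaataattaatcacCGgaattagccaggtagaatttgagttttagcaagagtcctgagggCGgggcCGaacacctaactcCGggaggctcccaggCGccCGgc
BCHE: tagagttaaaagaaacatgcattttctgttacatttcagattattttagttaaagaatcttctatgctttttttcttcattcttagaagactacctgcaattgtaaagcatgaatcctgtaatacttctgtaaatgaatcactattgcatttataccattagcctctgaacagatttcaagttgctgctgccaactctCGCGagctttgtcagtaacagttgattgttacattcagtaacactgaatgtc

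In WT cells the members fell into an ordered range of accessibility. PPM1L (87.7 ± 0.783 CPM, SD, n = 2) and TRIM59 (87.5 ± 4.73) were at the top and did not differ beyond their spread. KPNA4 followed at 64.7 ± 7.21, and NMD3 (41.1 ± 2.37) and IFT80 (40.5 ± 1.09) came next, again within their spread of each other. SPTSSB stood at 27.4 ± 2.92 and SLITRK3 at 18.2 ± 0.0069. The lowest were ZBBX at 6.77 ± 0.763, BCHE at 5.04 ± 0.0778 and TRIM59-IFT80 at 4.69 ± 1.05, of which the last pair did not differ beyond their spread. BCHE and the readthrough row were thus the members nearest to the blood and liver genes above, while the ciliary, import and ribosome export genes were far above those.

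The order of mean WT levels largely followed the CpG count of the promoters, a property the choice of members did not use. Counted over the full 300 bases of the RefSeq entry nearest each gene's boundary, the CpG count was 37 for PPM1L, 29 for TRIM59, 25 for NMD3, 18 for IFT80, 14 for SPTSSB, 10 for SLITRK3, 5 for ZBBX and 2 for BCHE. Across these 8 promoters the order by CpG count was the order by mean WT level (Spearman's rho 1, a description across promoters of the same libraries). It held in neither WT library alone. TRIM59 was above PPM1L in WT replicate 1 (90.9 against 88.3 CPM), and IFT80 above NMD3 in WT replicate 2 (41.3 against 39.4 CPM). The order also depends on the entry used. A further SLITRK3 start, 725 bases from the gene boundary, has 21 CpGs, more than the 18 of IFT80, whose WT level was higher. TRIM59-IFT80 broke the order by mean level: its listed start has 29 CpGs but its row was the lowest. With this row included rho was 0.594 (n = 9). That start lies 35909 bases from the boundary of its gene record and 52 bases from the TRIM59 start. The counts of these rows differed by 93.6% to 95.7%, whereas 2 kb windows at both starts would hold much the same fragments. The row thus does not appear to count its listed start, and which start it counts could not be settled. The rho with this row sets the CpGs of the listed start against counts that appear to come from elsewhere. Over the 17811 promoters with both values and a listed start near the gene's boundary, rho was 0.618. Cases such as TRIM59-IFT80 were left out of these. Median WT levels over the 17811 were 3.50 CPM for 0 to 4 CpGs, 7.94 for 5 to 13, 32.4 for 14 to 24 and 37.8 for 25 or more.

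**Figure D1:**
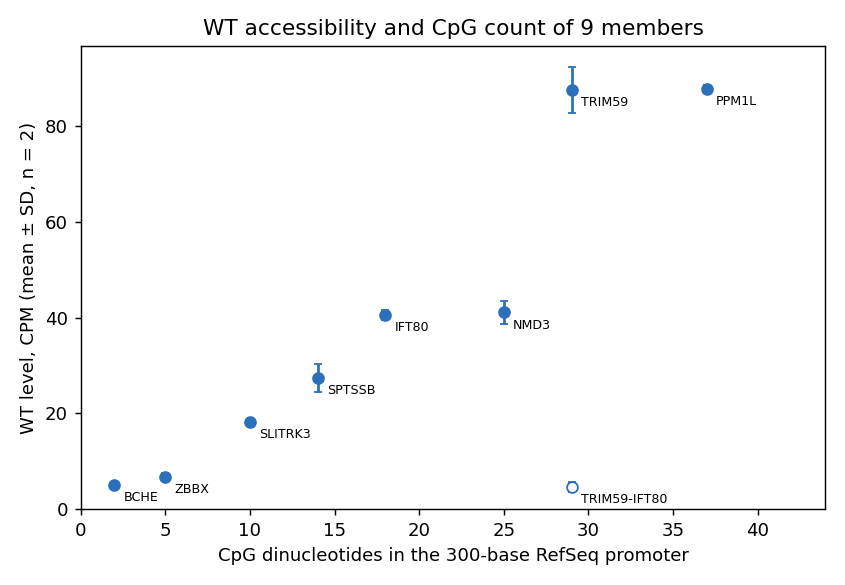
Mean WT accessibility (CPM, vertical axis, error bars SD of 2 libraries) against the number of CpG dinucleotides in the 300-base RefSeq promoter (horizontal axis) for the 9 members with a sequence. The filled points rise from BCHE with 2 CpGs to PPM1L with 37. The open point, TRIM59-IFT80, sets the 29 CpGs of its listed start against a row at 4.69 CPM.

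No short motif searched was in all 9 promoters. Searched on both strands of the 300-base entries, GGGCGG, the core of a GC box, was in 7 of 9 (45.0% of all 35116 entries). CCAAT was in 5 of 9 (34.6%). The entries of TRIM59 and TRIM59-IFT80 start 52 bases apart on the same strand and largely overlap. Both hold GGGCGG and CCAAT, so they are not independent in these counts. TATAAA was in 1 of 9, BCHE (11.5%). CCGGAAG, an ETS core, was in 0 of the 9 and in 10.3% of all entries, and the palindromic NRF1 site was in 0 of the 9 and in 1.24%. None of these motifs contains another, and a match describes only the sequence. These counts use the entry nearest the gene boundary, whereas the shares of all entries include alternative starts. PPM1L has 3 listed starts, the others with 1 and 4 CpGs and with TATAAA in both, SLITRK3 has a further start with 21 CpGs, and ZBBX one with 17.

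The largest differences between KO and WT among the members were at SPTSSB and KPNA4. SPTSSB, the sphingolipid gene, had 382, 647, 284 and 229 fragments, the order here and below being KO replicates 1 and 2 and then WT replicates 1 and 2. Scaled for depth these were 35.0, 37.9, 29.5 and 25.4 CPM, a log2 fold change of 0.42 (SE 0.087). Both KO libraries were above both WT libraries, but the WT libraries also differed from each other by 0.22 on the log2 scale. KPNA4, the nuclear import gene, had 868, 1480, 672 and 538 fragments in the same order, or 79.6, 86.8, 69.8 and 59.6 CPM. Its fold change was 0.37 (SE 0.066) with a WT to WT difference of 0.23. At both promoters WT replicate 2 was the lowest library, and the WT to WT differences were above the median size of 0.093 over all promoters with a mean count of at least 100, though under the 90th percentile of 0.243. Without WT replicate 2 the log2 fold change was 0.32 for SPTSSB and 0.26 for KPNA4.

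The most accessible pair, PPM1L and TRIM59, moved less. PPM1L had 1094, 1758, 850 and 787 fragments in the same order. These gave 100.3, 103.1, 88.3 and 87.2 CPM and a log2 fold change of 0.22 (SE 0.063). Here both groups were tight, with replicates 0.039 apart in KO and 0.018 apart in WT on the log2 scale. TRIM59, the ubiquitin ligase gene, had 98.1 and 100.9 CPM in KO and 90.9 and 84.2 in WT, from 1070, 1721, 875 and 760 fragments. Its log2 fold change was 0.19 (SE 0.063), with the groups apart and a WT to WT difference of 0.11. The rows of these genes lie at a like level but are not neighbours, and their like counts are no sign of shared fragments.

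IFT80 and NMD3, the cilium and ribosome export genes, differed least between the groups. IFT80 had 458, 736, 383 and 373 fragments, or 42.0, 43.2, 39.8 and 41.3 CPM, a log2 fold change of 0.075 (SE 0.077). NMD3 had 474, 763, 412 and 356 fragments, or 43.5, 44.7, 42.8 and 39.4 CPM, a log2 fold change of 0.10 (SE 0.076). The KO libraries lay above the WT libraries in both rows, with fold changes of the order of their standard errors. Leaving out 1 library at a time moved NMD3 between 0.048, without WT replicate 2, and 0.17, without WT replicate 1. The distance between KO replicate 1 and WT replicate 1 at NMD3 was smaller than that between the WT libraries.

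The 4 members with the fewest fragments were SLITRK3, ZBBX, BCHE and TRIM59-IFT80. SLITRK3, the synaptic gene, had 236, 342, 175 and 164 fragments, or 21.6, 20.1, 18.2 and 18.2 CPM, with a log2 fold change of 0.19 (SE 0.11). ZBBX had 82, 135, 60 and 66 fragments, or 7.52, 7.92, 6.23 and 7.31 CPM, and 0.20 (SE 0.18). BCHE had 57, 105, 48 and 46 fragments, or 5.23, 6.16, 4.98 and 5.09 CPM, and 0.20 (SE 0.20). Without WT replicate 1 ZBBX was at 0.086 and without WT replicate 2 at 0.32, and BCHE ranged from 0.059 without KO replicate 2 to 0.31 without KO replicate 1. In these rows KO lay above WT, at BCHE and ZBBX by about the standard error of the fold change. TRIM59-IFT80 was the exception, with 68, 85, 38 and 49 fragments, or 6.24, 4.98, 3.95 and 5.43 CPM. WT replicate 2 lay above KO replicate 2, the groups overlapped, and its log2 fold change was 0.24 (SE 0.21).

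**Figure D2:**
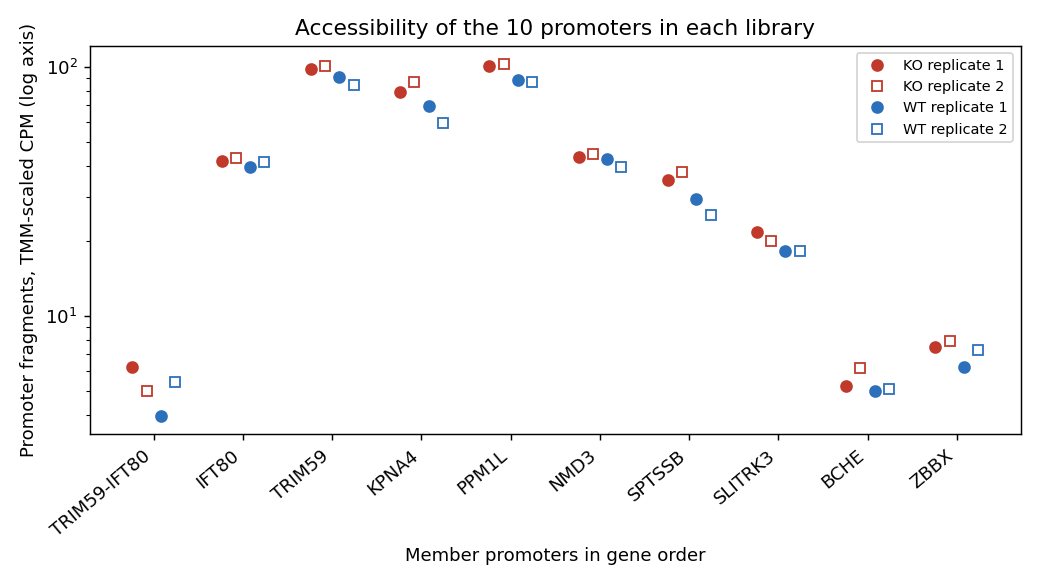
TMM-scaled fragment counts (CPM, log axis) of the 10 member promoters in gene order, with 1 symbol per library (red KO, blue WT, filled replicate 1, open replicate 2). Both KO symbols lie above both WT symbols in 9 of the 10 promoters, and at TRIM59-IFT80 they overlap.

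Across the 10 members, the log2 fold change was positive in all 10, with a median of 0.198 and a range from 0.075 to 0.418, and all 10 had passed the filter on low counts. KO lay above WT in 9 of 10, where 25.2% of all tested promoters did so. By edgeR's quasi-likelihood test over all promoters, 3 members (KPNA4, PPM1L and SPTSSB) were called higher at an adjusted p under 0.05 and 0 lower, beside 4.45% called in either direction, 3.45% higher and 0.995% lower over all 27647 promoters tested. The rule used this contrast, so these counts are no result about the members. Without KO replicate 2 or without WT replicate 2, edgeR called 0 members. DESeq2's Wald test called 7 promoters, among them 0 members, of which 4 had an unadjusted p under 0.05.

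The members are not consecutive promoters. Gene order here follows the lower coordinate of each gene record on either strand, so the order of the promoters themselves can differ. In this order 13 other tested promoters lie between the first and the last member. With the members they form a run of 23 tested rows. SMC4 (a condensin subunit), MIR15B and MIR16-2 lie between IFT80 and TRIM59, and SCARNA7 and ARL14 between KPNA4 and PPM1L. B3GALNT1 lies between PPM1L and NMD3. LINC02067, OTOL1, LINC01192, LINC01324 and SI lie between SPTSSB and SLITRK3, LINC01322 between SLITRK3 and BCHE, and LOC105374194 between BCHE and ZBBX.

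The median log2 fold change of these 13 other promoters was -0.22, ranging from -1.16 to 0.34, and 4 were positive. None was called by edgeR's quasi-likelihood test (0 of 13), although SI, B3GALNT1 and LINC01322, 3 in all, had an unadjusted p under 0.05. DESeq2 called 0, and 0 had an unadjusted p under 0.05. SI, the gene of the intestinal enzyme sucrase-isomaltase, had 8 and 16 fragments in KO and 17 and 19 in WT (-1.16 on the log2 scale, SE 0.38, edgeR adjusted p = 0.0526). B3GALNT1, a glycosyltransferase gene, had 26 and 45 fragments in KO and 38 and 37 in WT (-0.66, SE 0.25, edgeR adjusted p = 0.109). The non-coding LINC01322 went the other way, with 118 and 204 fragments in KO and 88 and 81 in WT (0.34, SE 0.15, edgeR adjusted p = 0.167). ARL14, a small GTPase gene, was at 0.32 (edgeR adjusted p = 0.518). MIR15B and MIR16-2, microRNA genes whose records start 157 bases apart and whose counts differed by 4.00% to 5.71%, were at -0.47 and -0.55. SCARNA7, OTOL1, LINC01192, LINC01324 and LOC105374194 lay between -0.25 and -0.18, and LINC02067 at 0.0047.

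SMC4 was close to IFT80 in its counts. Its counts of 488, 788, 404 and 397 differed from those of IFT80 by 5.20% to 6.60%, and the listed starts are 425 bases apart on opposite strands, so that windows of the stated 2 kb around them would overlap. Its KO to WT difference of 0.087 on the log2 scale (SE 0.075, edgeR adjusted p = 0.530) is not taken as an independent observation. TRIM59 and TRIM59-IFT80 were the reverse case, with listed starts 52 bases apart on RefSeq and counts that differed by 93.6% to 95.7%.

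**Figure D3:**
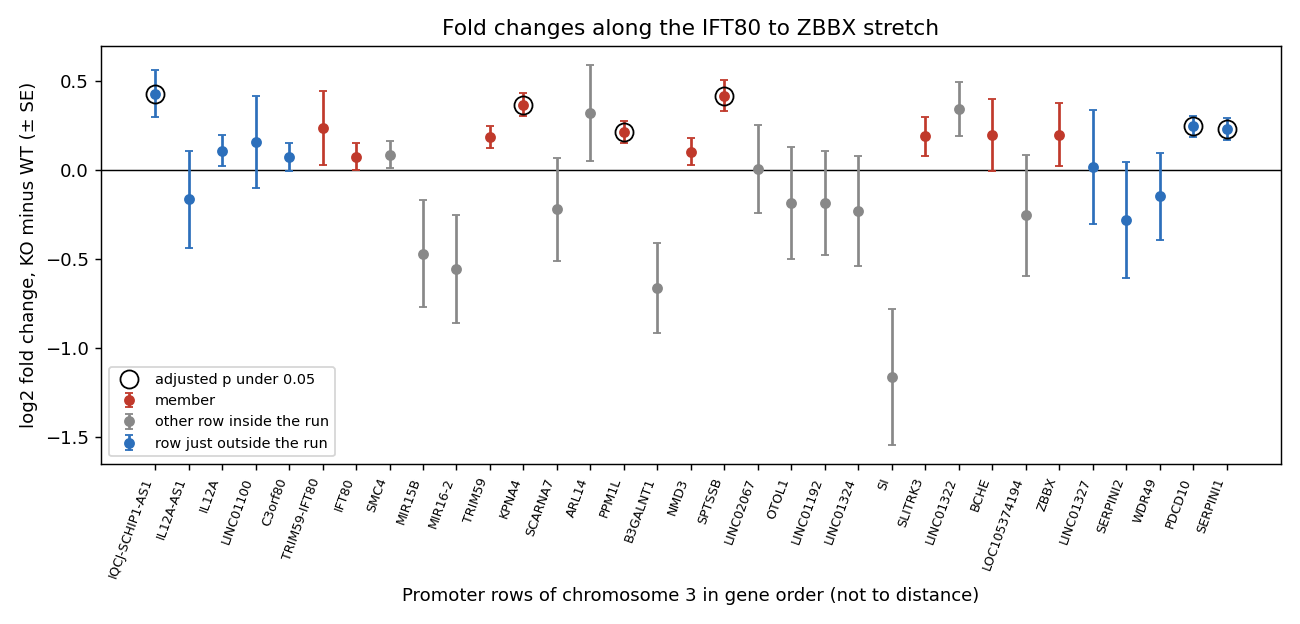
Log2 fold change of KO minus WT (vertical axis, error bars SE of the fit on 2 and 2 libraries) for the 23 promoters of the run and the 5 tested promoters on each side, in gene order. All 10 members (red) are above 0, while the other promoters inside the run (grey) reach down to -1.16 at SI.

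Depth moved with the split between members and non-members. The median of the mean count was 436.5 fragments over the members and 27.75 over the other 13. All 9 promoters of the run with a mean count of at least 100, that is 7 members with SMC4 and LINC01322, had positive fold changes and KO above WT, with a median of 0.189. Of the 14 with a lower mean count, 5 were positive, the median was -0.20, and 3 of the 5 were members. Members were chosen for higher counts in KO and SMC4 is not independent of IFT80, which leaves LINC01322 alone among the deep promoters. A lean with depth was seen over the whole table. There 65.9% of the 16308 promoters at or above 100 fragments were positive (median 0.055) and 19.1% of the 11339 below it (median -0.23). KO lay above WT in 39.2% of the former and 5.08% of the latter. Its part in the difference between members and non-members was not tested.

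Set against promoters of like depth, the members lay on the high side by different amounts. They were chosen for higher counts in KO, so a place on the high side is no result about them. In the class of promoters with mean counts from 53.75 to 93.5 the median log2 fold change was -0.175, and TRIM59-IFT80, BCHE and ZBBX in it were at 0.20 to 0.24. In the highest class the median was 0.084 and the upper quartile 0.146, and TRIM59, PPM1L and KPNA4 were at 0.19, 0.22 and 0.37. SPTSSB at 0.42 was in a class with a median of 0.057 and SLITRK3 at 0.19 in one with a median of 0.027. IFT80 and NMD3 at 0.075 and 0.10 lay near the 0.061 of their class. When the libraries were scaled along abundance with loess offsets, IFT80 was at 0.012, NMD3 at 0.040, TRIM59 at 0.10 and PPM1L at 0.13, while KPNA4 was at 0.29, SPTSSB at 0.36 and ZBBX, BCHE and TRIM59-IFT80 at 0.33 to 0.43.

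**Figure D4:**
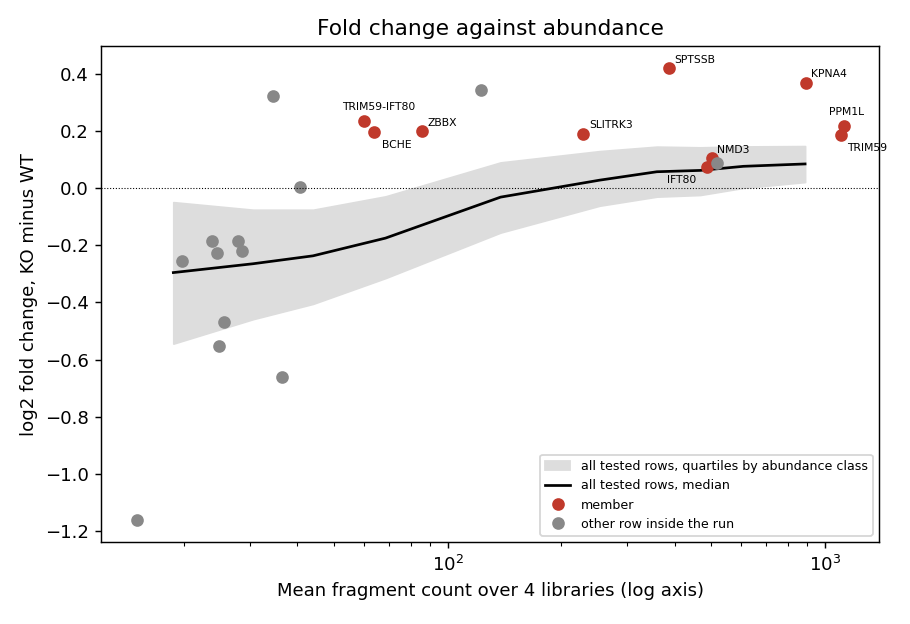
Log2 fold change of KO minus WT against the mean fragment count over 4 libraries (log axis), for members (red), the other promoters inside the run (grey) and the median and quartiles of all tested promoters by abundance class (line and band). SPTSSB, KPNA4, TRIM59-IFT80, ZBBX and BCHE lie well above the upper quartile of their abundance class, IFT80 and NMD3 inside the band.

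The promoters beyond the ends of the run were also mostly higher in KO where they were deep. On the near side, C3orf80, LINC01100, IL12A and IL12A-AS1 lay between -0.16 and 0.16, and the antisense row IQCJ-SCHIP1-AS1 was called higher (0.43, SE 0.13, edgeR adjusted p = 0.0326). On the far side LINC01327, SERPINI2 and WDR49 lay between -0.28 and 0.017. PDCD10, a gene of vascular integrity, rose by 0.24 (SE 0.061, edgeR adjusted p = 0.00611), and so did SERPINI1, the neuroserpin gene, by 0.23 (SE 0.061, edgeR adjusted p = 0.0103). The counts of the last pair were 0.0387% to 1.08% apart, from listed starts 829 bases apart, and the calls are not independent observations.

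Among the 50 tested promoters on each side of the run, 9 of 100 were called higher and 0 lower by edgeR, 4 on one side and 5 on the other, beside 3.45% called higher over all tested promoters. All 9 lay at or above a mean count of 100 and were 18.4% of the 49 flanking promoters at that depth, where 5.81% of all tested promoters at that depth were called higher and 0.57% lower. The other calls were TIPARP, its antisense row TIPARP-AS1, SHOX2 (0.40, edgeR adjusted p = 0.000379), EGFEM1P, SKIL and NCEH1, named here because they are the remaining calls, after their values were seen. TIPARP and TIPARP-AS1 had counts 0.715% to 1.48% apart, from listed starts 1123 bases apart, and are not independent observations. Without KO replicate 2 the number called was 0 and without WT replicate 2 it was 1. A mean count of 100 or more was reached by 49 flanking promoters, and 47 of those were positive, all except PHC3 (-0.018) and FNDC3B (-0.051), with a median of 0.144. At that depth 65.9% of all tested promoters and 80.2% of those on chromosome 3 were positive. KO lay above WT in 31 of the 49 (63.3%), beside 39.2% of all tested promoters at that depth and 54.5% of those on chromosome 3. Further neighbours among the 49 had near-equal counts, such as LRRC34 with LRRIQ4, FHL1P1 with SEC62, MLF1 with MLF1-DT, and ARHGEF26 with ARHGEF26-AS1. The 49 are therefore not all independent observations, and the counts and shares given for them include such pairs. The 51 flanking promoters with a mean count below 100 had a median of -0.185 and 9 positive values. The member median exceeded the median of all 100 flanking promoters by 0.162 on the log2 scale. With both held to a mean count of at least 100 the excess was 0.045. The members were chosen for higher counts in KO and the flanking promoters were not, so an excess is built in by the choice. Without WT replicate 1 the excess was 0.089, and over promoters with a mean count of at least 50 it was 0.070. Among the deep promoters the positive fold changes thus did not end at IFT80 or at ZBBX, and most deep promoters of the whole table were also positive.

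Along chromosome 3, 918 promoters reached a mean count of 100, of which 80.2% were positive and 91 were called higher (9.91%), with a median of 0.094. Over all tested promoters at that depth 65.9% were positive and 5.81% called higher, with a median of 0.055. In 92 consecutive blocks of 10 such promoters, the block that holds the 7 deep members had a median of 0.188 and 10 of 10 positive values, and it was the block ranked 11 from the top. Its neighbours stood at 0.147 and 0.151, also with 10 of 10 positive. With low-count promoters included, the highest block with members had a median of 0.081 and 35 of 157 blocks were above it. Among 23 chromosomes, chromosome 3 ranked 5 by this median, after chromosomes 4 (0.138), 13 (0.128) and 5 (0.117) and 7 (0.098), and chromosomes 19 (-0.080) and 17 (-0.052) were lowest.

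**Figure D5:**
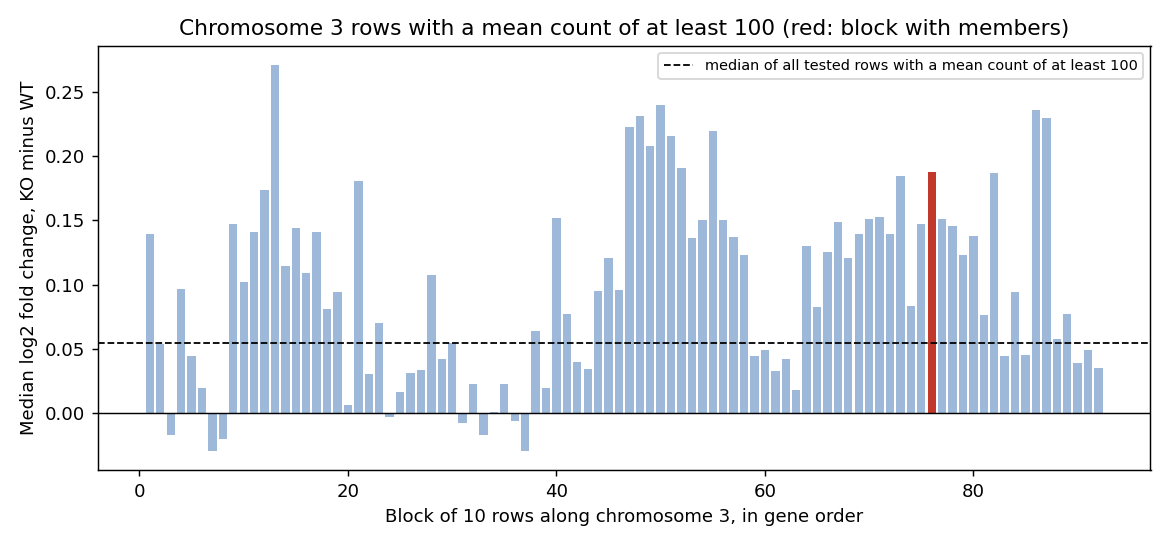
Median log2 fold change of KO minus WT in consecutive blocks of 10 chromosome 3 promoters with a mean count of at least 100, in gene order, with the median over all such promoters of the table dashed at 0.055. The red block with the 7 deep members is at 0.188, and 10 other blocks are higher.

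The WT libraries also differed from each other at these promoters. Over the 7 deep members the median log2 ratio was 0.194 for KO replicate 1 against mean WT, 0.205 for KO replicate 2, and 0.110 for WT replicate 1 against WT replicate 2. Over the 49 deep flanking promoters these were 0.103, 0.160 and 0.097, and over the deep promoters of chromosome 3 0.094, 0.104 and 0.051. Over all deep promoters they were 0.051, 0.056 and 0.012. The chromosomes with the highest KO to WT medians, 4, 13 and 5, had WT to WT medians of 0.073, 0.069 and 0.050, and the lowest, 19 and 17, had -0.121 and -0.072. The comparisons share the WT libraries, so the values are set side by side only, and the part of the WT difference in the KO to WT difference was not tested. The median size of the WT to WT log2 ratio was 0.110 over the deep members and 0.093 over all deep promoters.

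The promoters whose 4 values were most like the median profile of the members were found on several chromosomes. By Euclidean distance between centred log2 CPM over the 4 libraries, the nearest were RAP2B on chromosome 3 (distance 0.0089, log2 fold change 0.21), PHF8 on X (0.0095), TLK2 on 17 (0.0141), TLL2 on 10 (0.0149) and HLA-E on 6 (0.0152). A profile over 4 libraries is easily matched among 27647 promoters.

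Partners and relatives of the members elsewhere in the genome were taken from function lists. Of 22 other intraflagellar transport promoters, 2 rose, IFT70B (0.42, SE 0.088, edgeR adjusted p = 0.000661) and TTC21B (0.26, edgeR adjusted p = 0.00914), and 1 fell, IFT81 (-0.30, edgeR adjusted p = 0.0313, named after its value was seen), with a median of 0.028. Of 8 nuclear import promoters KPNA3 rose (0.23, edgeR adjusted p = 0.0232) and 0 fell, with KPNA5 at 0.13 and a median of 0.025. In the serine palmitoyltransferase list, 1 of 7 rose, ORMDL1, a brake on that enzyme (0.29, edgeR adjusted p = 0.00137), with ORMDL2 at 0.14 and a median of 0.082. Of 5 SLITRK promoters SLITRK5 rose (0.28, edgeR adjusted p = 0.00147), SLITRK1 was at 0.24 (edgeR adjusted p = 0.219), and the median was 0.215. Of 62 TRIM promoters TRIM44 alone rose (0.36, edgeR adjusted p = 0.0157) and 0 fell, with TRIM33 at 0.21 and a median of 0.021. Over all promoters the median was -0.017. In all, 7 of 122 list promoters were called (5.74%), beside 4.45% of all tested promoters. Of these 7, 2 were also called without KO replicate 2 and 0 without WT replicate 2, and DESeq2 called 0.

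The remaining lists had 0 calls by edgeR or DESeq2. Among 11 phosphatases of the PPM family the median was -0.048, with PPM1D at -0.16 and PPM1N at -0.14, and 1 was at an unadjusted p under 0.05 by edgeR. Among 4 partners of NMD3 in ribosome export it was -0.043, with RAN at -0.14 and LSG1 at -0.12, and among 3 cholinesterase genes 0.064, with PRIMA1 at 0.14 and ACHE at 0.064. Neither of these lists had a promoter at an unadjusted p under 0.05.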

How the data were processed

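ATAC-seq libraries of WT and MORC2 KO HEK293T cells were analysed from the deposited promoter table. The authors trimmed and aligned read pairs with bowtie2 to the CHM13 assembly, removed duplicates with Picard, and deposited a raw fragment count per promoter, without normalisation. The labels list Subread 2.0.6. The study describes promoters as 2 kb windows, but whether this table was counted so is not stated. The WT peak list, whose columns hold the authors' pooled peak values, was not used, since its positions were not tied to promoters here. Gene order and promoter sequence came from RefSeq on GRCh38.p14, which named 28763 rows.

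Rows were filtered with filterByExpr (27647 kept), scaled by TMM and tested with edgeR 4.0.16 under R 4.3.3 (quasi-likelihood F-test, legacy fit, no covariates, two-sided, Benjamini-Hochberg, threshold 0.05). DESeq2 1.42.0 and other settings were alternatives. On simulated counts with 200 changed promoters of 27608, 81% of changes of 0.6 on the log2 scale were recovered, with 9 false calls. The changed promoters had a mean count of at least 50. All promoters were given the same dispersion, without a lean with depth, and the changes were larger than those of the members. These rates therefore do not carry over to the fold changes of the members. The members and lists were chosen with earlier results of these data known. Named promoters were the members, MORC2, the rows inside the run, 5 rows on each side, the 2 smallest p in each list and the 5 nearest profiles. Depth was 6119609 to 12036024 nuclear fragments per library. Over single rows, same-numbered libraries did not deviate together (correlation -0.00027), and the design was fitted as unpaired. Differences between replicates at single rows are largely counting noise, so this correlation could miss a small shared effect. Fragments carry no molecular identifiers. With 2 libraries a group, single values were not tested. A marker promoter of the line is not reported here.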

Additional observations from a re-analysis of the deposited data

How the results depend on the processing

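The fold changes of the 10 members were positive in all 140 combinations of a member with an alternative. Of these, 129 moved by less than the replicate spread. The alternatives reuse the libraries in which the members were chosen for higher counts in KO, so the shared sign is no result about the members. How many promoters were called did depend on the processing, and the causes were not tested. The study tested windows along the genome, summarised them to promoters and reported far fewer differentially accessible genes. The 1229 calls made here are therefore not its count. With total count scaling the member median was 0.338 instead of 0.198, with 0 members, 0 flanking promoters, 0 function list promoters and 20 promoters in all called, against 3, 9, 7 and 1229. With loess offsets 402 promoters and 2 flanking promoters were called, and with a mean count of at least 50 required 787 promoters were. DESeq2's Wald test called 7 promoters, 0 members (4 at an unadjusted p under 0.05), 0 flanking promoters and 0 list promoters. The median over all promoters was 0.12 with total count scaling and -0.017 with TMM. Of the calls 954 were higher and 275 lower with TMM, 19 and 1 with total count scaling, and 223 and 179 with loess offsets. KPNA4 and SPTSSB passed the threshold in 10 of 14 alternatives and PPM1L in 6. TRIM59 passed only without WT replicate 1 (log2 fold change 0.24).

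Leaving out 1 library at a time gave 0 to 4 members called, 41 to 1637 promoters in all, 0 to 10 flanking promoters and 1 to 11 list promoters. The member calls were lost without KO replicate 2 (0 of 10, 41 promoters in all) and without WT replicate 2 (0 of 10, 230 in all), where 4 and 3 members were at an unadjusted p under 0.05. TRIM59-IFT80 ranged from 0.016 without WT replicate 1 to 0.47 without WT replicate 2, and BCHE was at 0.059 without KO replicate 2. A library left alone in its group was assumed to vary like the other group.

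A replicate block left 765 promoters, 5 flanking promoters and 2 members called. The labels tie the samples across groups only by number, and the correlation over single rows cannot show whether same-numbered libraries shared a batch. Holding rows to a mean count of at least 100, chosen after seeing the data, lowered the member median to 0.189 and its excess over the flanks to 0.045.

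Promoters with under 100 fragments, such as BCHE and ZBBX with standard errors of 0.20 and 0.18, cannot show differences of the size seen at PPM1L.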
